A study of Mus musculus with 30 samples.

Results

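The comparison described here is the step from EDTA fraction F2 to fraction F4 of the small intestinal epithelium in 3 mice that received ICZ, indolo[3,2b]carbazole, which binds and activates AHR, the aryl hydrocarbon receptor. Its members are the F2 and the F4 library of each ICZ mouse, chosen by their labels, so 6 of the 29 libraries that the labels assign to a group and of 30 in the series. Female C57BL/6 mice labelled WT, aged 8 to 10 weeks, had eaten the semi-purified diet AIN93G, which lacks AHR agonists, for 1 week. They then received 10 µg ICZ in corn oil, or the vehicle, by gavage, and the epithelium was taken 12 h later. Sequential EDTA treatment released it in 5 fractions per mouse, and 3' end libraries were made from total RNA. The vehicle F2 and F4 libraries of 3 other mice are used below as the same step without the ligand. The ICZ F1 fraction of mouse 3 is not analysed here.

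The intestinal epithelium is renewed from stem cells at the crypt base, and their daughters divide, move up the villus and mature into absorptive enterocytes before they are shed at the tip. EDTA loosens the epithelium from the tip downwards, so early fractions hold more villus cells and late fractions more crypt cells. Late fractions were also released later, so place along this axis and time in EDTA cannot be told apart here. AHR is a transcription factor that binds planar aromatic ligands, moves to the nucleus and pairs there with its partner ARNT. It induces Cyp1a1, the enzyme that degrades many of those ligands.

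The 6 libraries held 4359673 to 7032542 reads assigned to genes. Mitochondrial transcripts took 20.4% to 22.3% of them in F2 and 21.3% to 25.7% in F4, and reads outside any feature 10.7% to 11.2% of all counted reads in F2 and 12.0% to 13.5% in F4; their part in the results was not tested. In 1 library that shares the fit, F5 of ICZ mouse 1, mitochondrial transcripts took 53.7% of gene reads. Counts of genes that passed are therefore given with it and, where they change, without it. Levels are given as CPM, read counts relative to the size of the library after trimmed mean scaling, and tests are edgeR's quasi-likelihood test over 11984 genes with Benjamini-Hochberg adjustment, passed below 0.05.

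Cyp1a1 lay at 90.1, 26.6 and 14.0 CPM in F2 and at 49.0, 36.1 and 13.3 CPM in F4 of ICZ mice 1, 2 and 3, against 0 to 0.186 CPM in the same fractions of the vehicle mice. The ICZ libraries were thus all above the vehicle libraries, while the 2 fractions overlapped and only mouse 2 had more in F4. The fitted F4 against F2 log2 fold change was -0.21 ± 0.27 (SE, n = 3 mice; edgeR's quasi-likelihood test, adjusted p = 0.772). None of the 6 tested genes of AHR and its targets passed, and their log2 fold changes ran from -0.78 for Cyp1a2 to 0.12 for Tiparp, an AHR-induced ADP-ribosyltransferase. The receptor gene Ahr was at 0.06 and its partner Arnt at -0.16. Ahrr, which encodes an AHR repressor, was listed at 0 in the 3 F2 libraries and at 0.592, 0.630 and 0.205 CPM in F4, too few reads to test, and Cyp1b1 and Aldh3a1 were listed at 0 in all 6 libraries. Zeros in this table need care, because Atp5a1 and mt-Co2, genes that every cell uses, are listed at 0 as well.

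Between F2 and F4, 9 immediate early genes and 3 heat shock chaperone genes rose in the ICZ mice, 3 of them by over 3 on the log2 scale. Some enterocyte genes of sugar, lipid and drug handling fell, by less than 1. In all, 188 of 11984 genes passed, 1.57% of those tested, with 69 higher in F4 (0.576%) and 119 lower (0.993%). The rises were larger than the falls: 39 of the higher and 7 of the lower genes changed by at least 1 on the log2 scale, and 13 and 0 by at least 2. The median log2 fold change was 1.20 for the higher and -0.60 for the lower genes, against 0.00 over all genes tested. All 188 moved the same way in the 3 mice, as did 4769 of the 11984 genes tested. The test compares fractions within mice, so this agreement is largely built into the choice of the 188. In 142 of them the F2 and F4 values did not overlap, as they did not in 2278 of all genes tested (19%). Fewer cells of a type and less RNA per cell cannot be told apart in these bulk samples.

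With the F5 library of mouse 1 left out of the fit, 759 genes passed (6.33%), 276 higher (2.3%) and 483 lower (4.03%), and 186 of the 188 were among them. The count rested on the individual mice: it was 290 without mouse 1, 24 without mouse 2 and 7 without mouse 3. Without the mouse as a block 3 genes passed, Plk2, Cbr1 and Ppia. Under each of these fits all 188 genes kept their sign.

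Immediate early genes encode short-lived regulators that cells switch on within minutes of a stimulus. Klf2, a zinc finger transcription factor gene on chromosome 8 (GRCm38, 72319033 to 72321656, plus strand), lay at 0.520, 0.747 and 3.29 CPM in F2 and at 4.44, 30.2 and 29.5 CPM in F4. Each mouse was higher in F4 and the groups did not overlap, although the F2 values rest on only 3, 5 and 25 reads. The log2 fold change was 3.82 ± 0.41 (adjusted p = 0.000455, edgeR's quasi-likelihood test). Dusp1, the phosphatase that switches off MAP kinases, lay at 4.85, 4.33 and 9.74 CPM in F2 and at 20.0, 58.0 and 76.7 CPM in F4. All F4 values exceeded all F2 values, for a log2 fold change of 2.97 ± 0.26 (adjusted p = 4.99e-05, edgeR). The Dusp1 gene model on chromosome 17 (26505590 to 26562128) spans Ergic1 on the other strand, whose reads cannot be told apart as the strand setting is not given in the sources used here. Jun, a subunit of the AP-1 transcription factor, lay at 125, 97.5 and 194 CPM in F2 and at 221, 691 and 693 CPM in F4. Its F4 values also lay above all F2 values, with mouse 1 far below the other mice, and the log2 fold change was 1.88 ± 0.32 (adjusted p = 0.0273, edgeR).

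**Figure D1:**
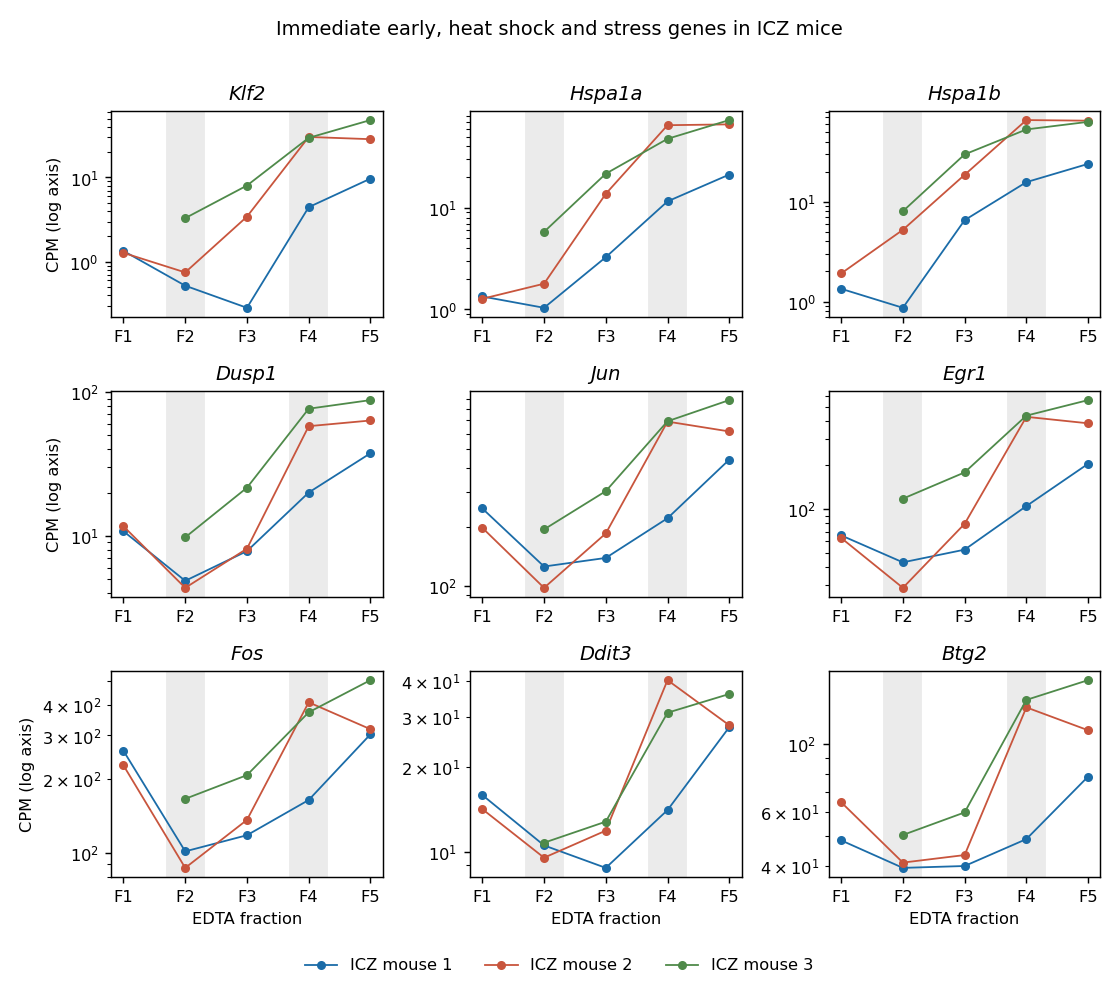
CPM on a log axis of 9 immediate early, heat shock and stress genes in fractions F1 to F5 of the ICZ mice, 1 line per mouse (no F1 point for mouse 3), with F2 and F4 shaded. In each panel every mouse is higher in F4 than in F2, and the F4 value of mouse 1 is the lowest of the 3.

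Of the 17 tested immediate early genes 9 rose and 0 fell, with a median log2 fold change of 1.41. The 9 were Klf2, Dusp1, Jun, Fos, Fosb, Egr1, Ier2, Nr4a2 and Btg2. Fos, the AP-1 partner of Jun, lay at 101, 86.8 and 166 CPM in F2 and at 164, 409 and 373 CPM in F4, so that mouse 1 in F4 fell just below mouse 3 in F2 (log2 fold change 1.41 ± 0.24). Egr1, a zinc finger gene induced by growth factors, lay at 43.1, 28.8 and 118 CPM and then at 105, 429 and 437 CPM, with the same overlap (2.37 ± 0.44). Ier2 passed narrowly (adjusted p = 0.04999, edgeR). Atf3, a transcription factor gene of the stress response, lay at 13.9, 12.1 and 31.1 CPM in F2 and at 38.1, 147 and 159 CPM in F4 but did not pass (adjusted p = 0.0566, edgeR). Without the F5 library of mouse 1 the count was again 9, with Ier3 in place of Ier2, and it was 3 in the fit of the 6 libraries alone and 2 without mouse 3.

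Heat shock proteins refold damaged proteins, and Hspa1a and Hspa1b encode the inducible HSP70. Hspa1a lay at 1.04, 1.79 and 5.79 CPM in F2 and at 11.6, 64.7 and 47.6 CPM in F4. Hspa1b lay at 0.866, 5.23 and 8.03 CPM in F2 and at 15.7, 65.7 and 52.9 CPM in F4. For both, the groups did not overlap and mouse 1 had the lowest value in each fraction. The log2 fold changes were 3.80 ± 0.33 for Hspa1a (adjusted p = 6.52e-05) and 3.24 ± 0.25 for Hspa1b (adjusted p = 7.16e-06, edgeR's quasi-likelihood test). These near-identical neighbours on chromosome 17 share reads, so their division is uncertain. Hsp90aa1, the inducible HSP90, rose by 0.58 ± 0.12 on the log2 scale, from 113 to 143 CPM in F2 to 163 to 215 CPM in F4 (adjusted p = 0.0233, edgeR). Of 13 tested heat shock chaperones these 3 rose and 0 fell (median log2 fold change 0.40), and 5 rose with the F5 library of mouse 1 left out. Of 15 tested genes of endoplasmic reticulum chaperones and the integrated stress response 1 rose, Ddit3, the transcription factor CHOP. It lay at 10.6, 9.56 and 10.8 CPM in F2 and at 14.1, 40.3 and 31.0 CPM in F4 (1.41 ± 0.26). With the F5 library of mouse 1 left out 3 of the 15 rose, Ddit3 and the chaperone genes Hsp90b1 and Hspa5.

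The rule for naming genes took the 15 largest rises among those without overlap between F2 and F4. Larger rises with overlap, such as that of Egr1 (2.37), are not among them. Further genes of the 15 were Ppp1r15a (log2 fold change 2.51), which restarts translation after stress, and the polo-like kinase genes Plk2 (2.38) and Plk3 (1.58). The others were the matrix protein gene Cyr61 (2.16), the endothelin gene Edn2 (1.57), the small GTPase gene Rhob (1.51) and the carbonic anhydrase gene Car12 (1.48). Ube2s (2.29) and Ppia (2.24) were also among the 15. Ube2s overlaps the ribosomal protein gene Rpl28 on the other strand, and Ppia has many pseudogene copies, so both are uncertain. Of the 30 genes chosen by that rule in both directions, 27 passed without mouse 1, 12 without mouse 2 and 4 without mouse 3, all with the same sign.

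Promoters were read for the genes that rose, because several are classical targets of the cAMP response element, the palindrome TGACGTCA. RefSeq gave promoters (GRCm38.p6) for 46 of the 69 higher and 91 of the 119 lower genes. Within 250 bases before the start site the element was found in 5 of 46 (10.9%), in 0 of 91, and in 439 of 27025 promoters in all (1.62%). The AP-1 site TGACTCA was found in 1 of 46 (2.17%), in 8 of 91 (8.79%) and in 4.43% of all promoters, and the heat shock element in 1 of 46, which was neither Hspa1a nor Hspa1b, in 0 of 91 and in 0.400% of all. These 3 motifs, searched on both strands, were chosen after the values were seen, and a match describes letters, not a binding site. Nor does the lack of an exact match show that a promoter lacks a working element. The 5 windows with the cAMP response element are shown with it in capitals, since they allow its place to be compared. It starts 166 bases before the start site in Btg2, 18 in Ccnl1, 143 in Dusp1, 62 in Plk2 and 12 in Ppp1r15a. The Btg2 window is chr1:134079156-134079405 on the minus strand. The Ccnl1 window is chr3:65958250-65958499 on the minus strand. The Dusp1 window is chr17:26508473-26508722 on the minus strand. The Plk2 window is chr13:110394794-110395043 on the plus strand. The Ppp1r15a window is chr7:45526269-45526518 on the minus strand.
Btg2: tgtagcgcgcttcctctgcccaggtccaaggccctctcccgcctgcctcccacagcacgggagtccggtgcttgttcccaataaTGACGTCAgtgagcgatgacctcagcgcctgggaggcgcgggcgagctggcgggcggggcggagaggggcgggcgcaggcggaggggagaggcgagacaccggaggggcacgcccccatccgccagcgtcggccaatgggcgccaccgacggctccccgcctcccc
Ccnl1: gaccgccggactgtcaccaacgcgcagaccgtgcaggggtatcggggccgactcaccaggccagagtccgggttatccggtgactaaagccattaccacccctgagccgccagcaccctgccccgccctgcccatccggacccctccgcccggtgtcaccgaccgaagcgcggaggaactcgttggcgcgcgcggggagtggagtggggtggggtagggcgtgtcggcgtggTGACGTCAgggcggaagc
Dusp1: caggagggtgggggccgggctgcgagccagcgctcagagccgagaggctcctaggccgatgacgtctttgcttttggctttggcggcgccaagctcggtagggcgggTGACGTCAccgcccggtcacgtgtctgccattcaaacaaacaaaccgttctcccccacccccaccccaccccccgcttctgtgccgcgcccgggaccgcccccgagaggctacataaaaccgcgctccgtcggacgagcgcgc
Plk2: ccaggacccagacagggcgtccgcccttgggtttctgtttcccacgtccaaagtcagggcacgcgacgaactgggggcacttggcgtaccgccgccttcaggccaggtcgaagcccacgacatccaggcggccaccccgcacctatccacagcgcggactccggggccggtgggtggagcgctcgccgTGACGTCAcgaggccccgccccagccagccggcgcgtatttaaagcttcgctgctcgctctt
Ppp1r15a: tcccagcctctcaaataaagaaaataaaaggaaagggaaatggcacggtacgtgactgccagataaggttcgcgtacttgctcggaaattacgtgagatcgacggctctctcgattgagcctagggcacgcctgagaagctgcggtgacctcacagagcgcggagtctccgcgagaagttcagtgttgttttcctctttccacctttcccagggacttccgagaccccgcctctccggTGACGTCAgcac
Of these genes, Btg2, an antiproliferative gene, went from 39.5, 41.1 and 50.6 CPM to 49.0, 132 and 139 CPM. Ccnl1, a cyclin of RNA processing, went from 129, 129 and 170 CPM to 160, 248 and 245 CPM, a log2 fold change of 0.60 ± 0.14.

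Mature absorptive enterocytes carry transporters, brush border enzymes and lipid-loading proteins, and 25 of their 26 tested marker genes had a negative log2 fold change (median -0.41). Their summed level was 58024, 45868 and 35867 CPM in F2 and 36273, 33832 and 32688 CPM in F4, lower in F4 in every mouse but with overlapping groups. Of the 26, 3 fell, Slc2a5, Slc6a19 and Mgam, and 13 fell with the F5 library of mouse 1 left out. Slc2a5, the fructose transporter, lay at 569, 417 and 237 CPM in F2 and at 312, 199 and 149 CPM in F4. The groups overlapped across mice, but each mouse was lower in F4 (log2 fold change -0.88 ± 0.17, adjusted p = 0.0224, edgeR's quasi-likelihood test). Mgam, the starch-splitting maltase-glucoamylase, lay at 3231, 3596 and 2737 CPM and then at 2079, 2417 and 2050 CPM, without overlap (-0.56 ± 0.13). Slc6a19, a neutral amino acid transporter, lay at 178, 136 and 99.4 CPM and then at 103, 77.0 and 80.2 CPM (-0.66 ± 0.15). Among villus tip genes 0 of 10 passed (median -0.57), or 2 with the F5 library of mouse 1 left out, Krt20 and Creb3l3. The adenosine deaminase gene Ada lay at 310, 140 and 177 CPM in F2 and at 327, 33.2 and 99.5 CPM in F4, with mouse 1 not lower.

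**Figure D2:**
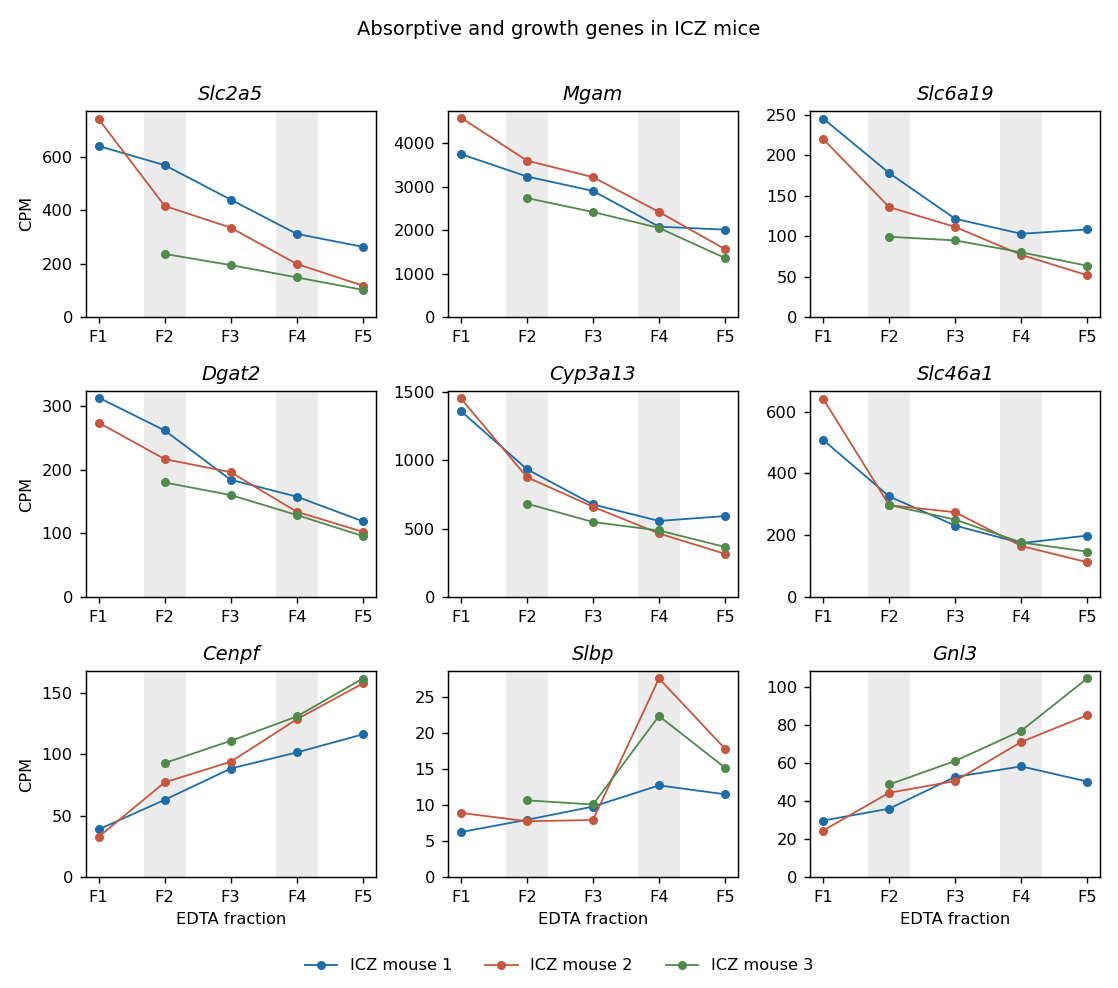
CPM of 6 absorptive or metabolic genes and 3 growth genes in fractions F1 to F5 of the ICZ mice, 1 line per mouse (no F1 point for mouse 3), with F2 and F4 shaded and axes starting at 0. Slc2a5, Mgam, Slc6a19, Dgat2, Cyp3a13 and Slc46a1 are lower and Cenpf, Slbp and Gnl3 higher in F4 than in F2 in each mouse.

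Fat is rebuilt inside enterocytes and exported as chylomicrons, and 3 of 21 tested genes of that route fell (median -0.40), or 12 with the F5 library of mouse 1 left out. Dgat2, which adds the last fatty acid to triglycerides, lay at 261, 216 and 180 CPM in F2 and at 158, 134 and 129 CPM in F4. Every F4 value lay below every F2 value, for a log2 fold change of -0.65 ± 0.10 (adjusted p = 0.00652, edgeR's quasi-likelihood test). Agpat2, an enzyme earlier in the same route, fell by 0.46 ± 0.11 and the lipid droplet gene Plin3 fell by 0.40 ± 0.09 on the log2 scale. In brush border structure 1 of 17 fell (median -0.39), Ush1c, a scaffold between microvilli, from 274, 269 and 294 CPM to 201, 210 and 195 CPM, without overlap (-0.48 ± 0.09). With the F5 library of mouse 1 left out 9 of the 17 fell, among them the actin-bundling gene Vil1 and the protocadherin genes Cdhr2 and Cdhr5, which link microvilli. Slc46a1, the proton-coupled folate transporter, lay at 326, 297 and 298 CPM in F2 and at 175, 166 and 177 CPM in F4, with a narrow range in each fraction and no overlap (-0.85 ± 0.16).

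Drug-metabolizing enzymes also fell in part: 3 of 24 tested cytochrome P450 and phase II genes (median -0.33), and 8 with the F5 library of mouse 1 left out. Cyp3a13 lay at 936, 878 and 684 CPM in F2 and at 558, 466 and 488 CPM in F4, without overlap (-0.73 ± 0.15, adjusted p = 0.0233, edgeR's quasi-likelihood test). Cyp4f14 fell by 0.56 ± 0.11 and Cyp2b10 by 0.61 ± 0.13 on the log2 scale. Of 12 NRF2 targets, which buffer oxidants, Srxn1 and Gclm fell, by 0.50 and 0.41, and the list's median was -0.06. The glutathione enzyme genes Gpx2 and Gsr rose when the F5 library of mouse 1 was left out. The largest fall among genes chosen by rule was that of Ifit3, an interferon-induced antiviral gene, at 24.1, 16.3 and 13.6 CPM in F2 and 6.81, 6.46 and 8.00 CPM in F4 (-1.34 ± 0.24). Of 23 tested interferon response genes 2 fell, Ifit3 and the GTPase gene Igtp (-0.73 ± 0.18), with a median of -0.38, and 6 fell with the F5 library of mouse 1 left out.

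Other falling genes included Cym (log2 fold change -1.21), a stomach protease gene in other mammals, the small GTPase gene Rhod (-1.07), the interleukin 17 receptor gene Il17ra (-0.96), Hepacam2 (-0.96), the leukotriene receptor gene Ltb4r2 (-0.91), the fatty acid activating enzyme gene Acsf2 (-0.88), the glycolysis gene Aldoc (-0.87) and the guanine deaminase gene Gda (-0.83). In the Wnt target list 13 of 15 tested genes had positive values, but the 1 that passed, the transcription factor gene Sp5, fell, from 19.6, 16.7 and 14.5 CPM to 9.03, 11.5 and 8.41 CPM (-0.83 ± 0.19, adjusted p = 0.0443, edgeR). The cyclin gene Ccnd1 rose when the F5 library of mouse 1 was left out.

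**Figure D3:**
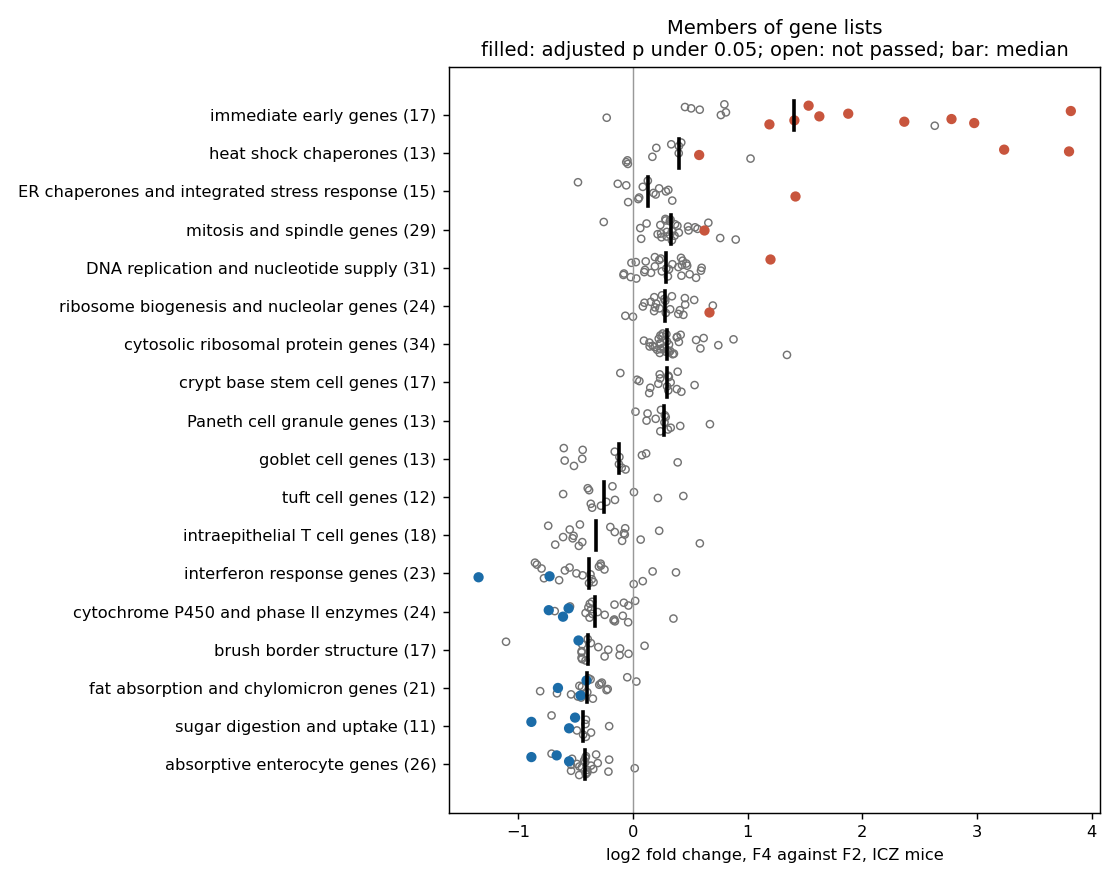
Log2 fold change, F4 against F2 in ICZ mice, of every tested member of 18 gene lists (number tested in brackets), filled where the adjusted p was under 0.05 and with the list's median as a bar. Immediate early genes reach 3.82, while most members of the other lists lie between -1 and 1.

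Growth genes had mostly positive values, but few passed. Of 31 tested genes of DNA replication 1 rose, Slbp, whose protein binds histone mRNA, at 7.97, 7.77 and 10.7 CPM in F2 and at 12.7, 27.6 and 22.4 CPM in F4 (1.20 ± 0.22). The histone genes Hist1h1d, Hist1h3d and Hist1h4i, which were singled out after their values were seen, rose by 1.01, 1.29 and 1.44 on the log2 scale. Of 29 mitosis genes 1 rose, the kinetochore gene Cenpf, from 63.0, 77.2 and 92.9 CPM to 102, 129 and 131 CPM (0.62 ± 0.12). Of 24 ribosome biogenesis genes 1 rose, the nucleolar GTPase gene Gnl3, from 36.0, 44.4 and 48.7 CPM to 58.2, 71.0 and 76.9 CPM (0.66 ± 0.16). For these 3 genes the groups did not overlap. The list medians were 0.29, 0.33 and 0.28, and with the F5 library of mouse 1 left out 5, 6 and 5 members rose. All 34 tested ribosomal protein genes had positive values (median 0.29) and 0 passed, or 3 with the F5 library of mouse 1 left out, Rps24, Rps2 and Rpl3. The promoters of these lists were searched on both strands over the same 250 bases. CCAAT was found in 21 of 26 mitosis gene promoters (80.8%) against 34.5% of all promoters, and the E2F motif, TTTCGCG or TTTCCCG, in 7 of 28 replication gene promoters (25.0%) against 3.50%. The AHR core motif GCGTG was found in 5 of 7 promoters of AHR and its targets (71.4%) and in 28.2% of all promoters, but also in 57.7% of mitosis, 54.5% of heat shock and 41.8% of lower gene promoters.

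None of 17 crypt base stem cell genes passed, although 16 had positive values (median 0.30). Lgr5, a marker gene of these cells, lay at 3.81, 10.6 and 15.4 CPM in F2 and at 6.96, 11.3 and 17.2 CPM in F4. The gap between mice was larger than that between fractions (log2 fold change 0.30 ± 0.26). Olfm4, another stem cell marker, lay at 212, 349 and 479 CPM and then at 268, 468 and 579 CPM (0.33 ± 0.27), and it rose with the F5 library of mouse 1 left out. Of 13 Paneth cell granule genes 0 passed (median 0.28), and Lyz1, the Paneth lysozyme, lay at 955, 2238 and 3211 CPM in F2 and at 1487, 2597 and 3148 CPM in F4. Mouse 1 had the lowest level of these 3 genes in both fractions. Of the regulators of cell fate, the Notch target gene Hes1 rose by 0.60 ± 0.14 and the epithelial transcription factor gene Elf3 by 0.44 ± 0.10. Of the goblet, enteroendocrine and tuft cell lists no member passed (medians -0.12, 0.02 and -0.25), and Muc2, the main goblet mucin, was listed at 0 in the 6 libraries. With the F5 library of mouse 1 left out 2 goblet genes fell, Tff3 and Fcgbp, and of the hormone cell genes 2 rose, Gcg and Pax6, and 2 fell, Gip and Nts, while 0 tuft genes passed. Without mouse 1, 4 goblet genes fell. Epcam, which all these epithelial cells carry, lay at 1132 to 1215 CPM in F2 and at 1143.7 to 1193 CPM in F4.

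Energy and sterol genes moved little between F2 and F4, although most genes of oxidative phosphorylation were slightly lower in F4. None of 35 nuclear genes of oxidative phosphorylation (median -0.14), 20 genes of fatty acid oxidation (median -0.10) or 23 genes of cholesterol synthesis (median 0.06) passed. Negative values were found for 29, 13 and 7 of them and positive values for 6, 7 and 16. The oxidative phosphorylation list summed to 14144, 14294 and 14425 CPM in F2 and to 12894, 13104 and 12740 CPM in F4, without overlap. Acadl and Ppargc1a were among 3 members of the fatty acid oxidation list that fell with the F5 library of mouse 1 left out. Of the iron genes, Fth1, the ferritin heavy chain that stores iron, fell from 3087, 3952 and 3230 CPM to 2300.5, 2835 and 2056 CPM, without overlap (-0.53 ± 0.12). Of 14 tight junction genes, F11r, which encodes the adhesion molecule JAM-A, fell from 160, 218 and 186 CPM to 118, 133 and 112 CPM (-0.65 ± 0.10), and the list's median was 0.03. The claudin gene Cldn23 rose with the F5 library of mouse 1 left out. Slc51b, a subunit of the bile acid exporter, fell by 0.45 ± 0.11 on the log2 scale.

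Among markers of cells outside the epithelium 1 gene passed. Jchain, which joins antibody chains in plasma cells, lay at 0.866, 1.49 and 6.85 CPM in F2 and at 1.78, 9.14 and 39.4 CPM in F4 (2.40 ± 0.47, adjusted p = 0.0282, edgeR's quasi-likelihood test). The 9 B and plasma cell genes summed to 11.8, 23.8 and 169 CPM in F2 and to 24.4, 186 and 663 CPM in F4, higher in each mouse. Of them 4 were tested and 1 passed, and Cd79a was at 0 in the 6 libraries. Genes of intraepithelial T cells, lymphocytes lodged between enterocytes, summed to 455, 373 and 227 CPM in F2 and to 385, 257 and 163 CPM in F4, lower in each mouse, and 0 of 18 tested passed (median -0.32). Of the myeloid list 0 of 4 tested genes passed, with 2 positive and 2 negative values, and the summed level was 10.9 to 13.0 CPM in F2 and 8.00 to 21.5 CPM in F4. Endothelial genes summed to 14.6 to 16.1 CPM in F2 and to 11.1 to 17.6 CPM in F4. The 12 fibroblast and muscle genes summed to 7.27 to 10.9 CPM in F2 and to 11.7 to 24.6 CPM in F4. The part of these cells in the changes described above was not tested.

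The F3 mean lay between the F2 and F4 means for 185 of the 188 genes (98.4%), against 49.9% of all genes tested. The 188 were chosen for a gap between F2 and F4, in a fit that also held F3. These shares are therefore not like for like, and the order of fractions was not tested. Measured in mean CPM, not log2, the median share of the step reached by F3 was 19.9% for the higher genes and 43.7% for the lower genes. Over all genes tested it was 45.1%. On that scale the higher genes made most of their step between F3 and F4. A gene that rises many-fold has a larger share by F3 on the log2 scale, which was not computed. Hspa1a, for example, had means of 2.87, 12.9 and 41.3 CPM in F2, F3 and F4. The F1 means rest on mice 1 and 2 and the F2 means on all 3 mice, without pairing, so fraction and mouse 3 are mixed in that step. From F1 to F2, 101 of the 119 lower genes (84.9%) and 40 of the 69 higher genes (58.0%) moved in the direction of their later step. Of all genes tested 60.9% did, so the share of the higher genes was near the background. Fos is an example, with mean levels of 243 ± 23.4 (SD, n = 2) CPM in F1, 118 ± 42.0 in F2, 154 ± 47.1 in F3, 315 ± 132 in F4 and 375 ± 112 in F5 (SD, n = 3). From F4 to F5, 54 of 69 (78.3%) and 99 of 119 (83.2%) went further the same way, against 56.7% of all genes tested.

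The mice differed in which side of the step was large. The median over the higher genes of log2 CPM in F4 minus F2 was 0.69, 1.61 and 1.04 in ICZ mice 1, 2 and 3, and over the lower genes -0.68, -0.60 and -0.45. Mouse 1 thus had the smallest rise and the largest fall. Immediate early genes had medians of 0.63, 2.11 and 1.40 and absorptive enterocyte genes -0.65, -0.52 and -0.12. Other lists had another order: heat shock chaperones were at 0.51, 0.54 and 0.15 and mitosis genes at 0.68, 0.37 and 0.08, with mouse 3 lowest, and villus tip genes at -0.35, -0.79 and -0.27.

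**Figure D4:**
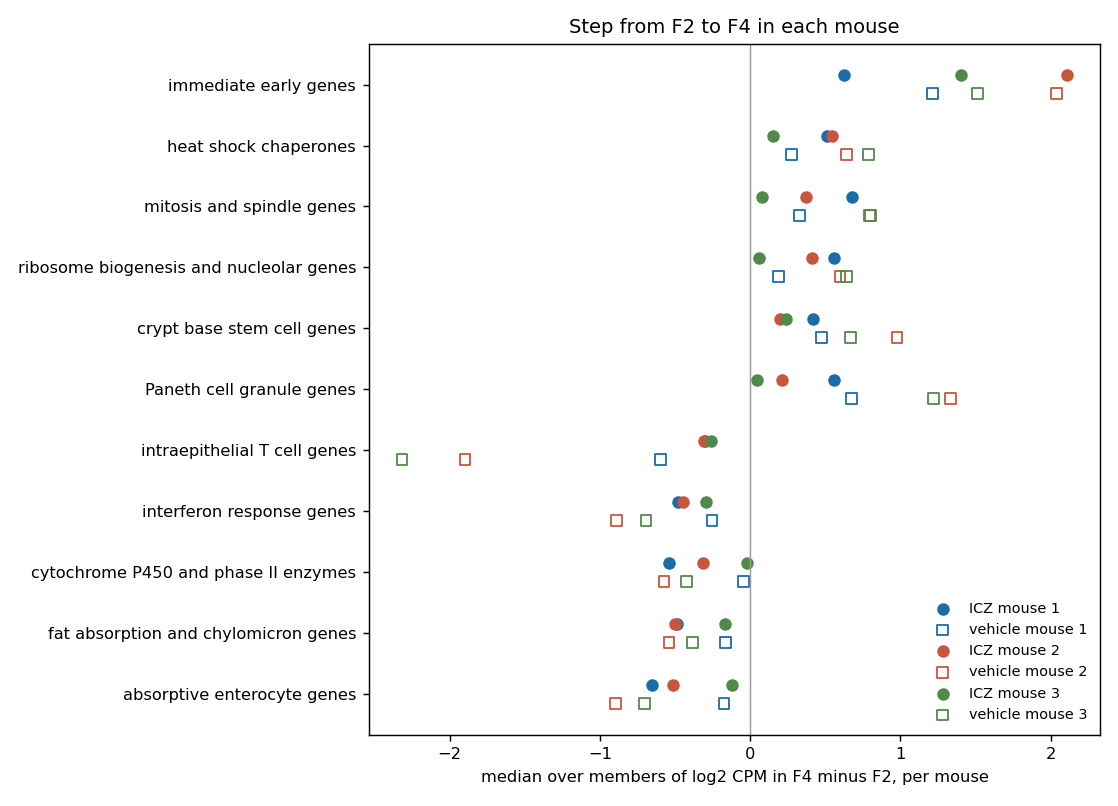
Median over the tested members of 11 gene lists of log2 CPM in F4 minus F2, for each ICZ mouse (filled circles) and each vehicle mouse (open squares). Immediate early genes are at 0.63 to 2.11 in ICZ and 1.22 to 2.04 in vehicle mice, and intraepithelial T cell genes at -0.31 to -0.26 and -2.32 to -0.59.

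In vehicle mice, which share no library with the ICZ mice, 300 of the 11984 genes passed between F2 and F4 (2.5%), or 15 to 1181 with 1 vehicle mouse left out, the lowest without mouse 2 and the highest without mouse 1. Of the 188 genes, 184 had the same sign in vehicle mice, against 66.0% of all genes tested, and 64 passed there too, 34.0% of the ICZ and 21.3% of the vehicle genes. The other 4, named after their values were seen, were Gpr157 (-0.99 in ICZ and 0.25 in vehicle mice), Acta1 (-1.08 and 0.18), Ciapin1 (-0.63 and 0.00) and Pdzd3 (-0.54 and 0.02). Of the 64, 51 were higher, 13 were lower and 0 moved in opposite directions. The median vehicle log2 fold change was 1.15 for the higher genes (1.20 in ICZ mice) and -0.38 for the lower genes (-0.60). The 188 were chosen by their ICZ values, which favours large ICZ changes, so these medians are not like for like. Lists not chosen by that test had no common order. Absorptive enterocyte genes had medians of -0.41 in ICZ and -0.59 in vehicle mice, and fat absorption genes -0.40 and -0.35. Klf2 rose by 3.51, Hspa1a by 3.62 and Dusp1 by 2.90 in vehicle mice, close to their ICZ values. Across all genes the 2 sets of fold changes had a Pearson r of 0.47 and a Spearman rho of 0.46, a description only, since genes are not independent.

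**Figure D5:**
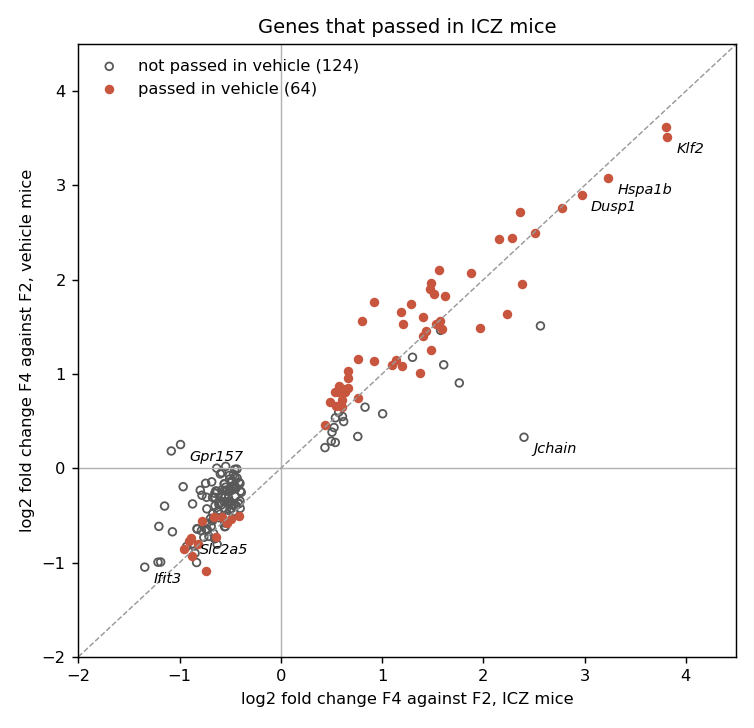
Log2 fold change of the 188 genes in ICZ mice (horizontal axis) and in vehicle mice (vertical axis), filled where the gene also passed in vehicle mice, with the line of equal change dashed. The 69 higher genes are all positive in vehicle mice, and Jchain and Gpr157 lie far from the line.

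No gene passed the test of the difference between the ICZ and the vehicle step (0%), with 763 at an unadjusted p under 0.05 by edgeR's quasi-likelihood test and a smallest adjusted p of 0.718, and DESeq2 also called 0 (677 unadjusted). The fit of the 12 F2 and F4 libraries alone called 13 and the fit without a filter on low counts 109. Gpr157, a G protein-coupled receptor gene, had the smallest p for the difference among genes that passed in ICZ mice. It lay at 12.5, 14.5 and 14.0 CPM in F2 and 6.96, 8.82 and 5.33 CPM in F4. Every F4 value lay below every F2 value (log2 fold change -0.99 ± 0.20), against 0.25 in vehicle mice, and the difference had an unadjusted p of 0.000214 (adjusted p = 0.718, edgeR). Paneth cell genes had a median of 0.28 in ICZ and 1.15 in vehicle mice, and T cell genes -0.32 and -1.70, with 5 of 13 and 4 of 18 members at an unadjusted p under 0.05 for the difference and 0 passing it. A smaller ICZ median was not particular to these lists. Stem cell genes had 0.30 and 0.83 and mitosis genes 0.33 and 0.73, while brush border genes were near equal (-0.39 and -0.40). In the fit of the 12 F2 and F4 libraries alone the Paneth genes Defa26 and Mmp7 passed the difference, and Defa26 also did with the replicate number as a block. Lyz1, for example, had a log2 fold change of 0.28 in ICZ and 1.21 in vehicle mice. In vehicle mice 4 Paneth genes rose and 5 T cell genes fell. Several of these Paneth genes are defensins, whose near-identical copies share reads.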

How the data were processed

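Small intestinal epithelium of 3 ICZ and 3 vehicle mice was released in EDTA fractions, and 3' end libraries of each were sequenced. The values the authors deposited are whole-number read counts of 54146 genes, without normalization. BWA 0.7.17-r1188, HTSeq 0.11.2, SAMtools 1.10, FastQC 0.11.2 and the build GRCm38.p6 (mm10) are named in the submitters' processing notes. Not given in the sources used here are the strand setting, the annotation release and any molecular identifiers, so reads of genes that overlap on opposite strands, or have near-identical copies, cannot be told apart, and read counts are not counts of molecules. Summary lines that name no gene stayed out of library sizes: in the 6 libraries no-feature lines held 10.7% to 13.5%, ambiguous 3.85% to 4.50%, low-quality 19.9% to 23.8% and unaligned 2.63% to 4.17% of all counted reads.

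Genes were filtered with filterByExpr on the 6 libraries (11984 kept) and scaled by TMM in edgeR 4.0.16 (R 4.3.3). All 14 ICZ libraries entered 1 quasi-likelihood fit with mouse as block, contrast F4 minus F2, adjusted p under 0.05. The 15 vehicle libraries were fitted likewise, and the difference was fitted in all 29. Alternatives used DESeq2 1.42.0, limma voom 3.58.1, RLE, other filters, other library sets and each mouse left out. Of these fits only the ICZ fit was run on simulated counts, with a dispersion of 0.03 for every gene and no outlying library. It recovered 81 of 100 genes changed by 1 and 100 of 100 changed by 2 on the log2 scale. Of its calls 4.74% were unchanged genes. The spread of the real libraries may differ from that setting. Mice pair the fractions by the labels: deviations of F2 and F4 of the same mouse correlated at 0.31, 0.045 and 0.17, and those of different mice at -0.27 to 0.12. Replicate libraries of a fraction differed by more than counting noise (chi-square per degree of freedom 4.74 to 25.3), so none was counted as a duplicate.

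Genes named individually were those that passed, up to 15 per direction by size of fold change, given a mean of 5 CPM or more in F2 or F4, no overlap of F2 and F4 values and the same sign in 3 mice, without predicted genes, plus up to 6 members of each list by p, AHR genes and cell type anchors. Members and lists (46 lists, 714 genes, 2 not matched) were chosen with earlier results of these data known, so no list gets a test. GENCODE M21 gave positions on GRCm38, and 54079 of 54146 gene IDs matched without version.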

Additional observations from a re-analysis of the deposited data

Results flagged for a closer look

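All 45 gene lists with tested members were searched for a median step of opposite sign in the ICZ and the vehicle mice. In 2 of them the median step from F2 to F4 was negative in every ICZ mouse and positive in every vehicle mouse. Among so many lists, a few such splits can arise by chance. For pan-epithelial genes, such as Epcam and the keratins, the ICZ list median was -0.040 on the log2 scale, with -0.02, -0.03 and -0.05 in ICZ mice 1 to 3 and 0.09, 0.15 and 0.18 in the vehicle mice. For enterocyte lineage transcription factors the ICZ list median was also -0.040, with -0.22, -0.01 and -0.03 in the ICZ mice and 0.09, 0.08 and 0.07 in the vehicle mice. The difference between these medians was not tested, and 0 members of either list passed the test of the difference gene by gene.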

How the results depend on the processing

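The number of genes higher and lower in F4 of ICZ mice, 69 and 119, depended on the libraries in the fit, while the 188 genes kept their sign under every alternative that tested them. The counts were 276 and 483 with the F5 library of mouse 1 left out, 406 and 604 with F2, F3 and F4 libraries only, 105 and 234 with DESeq2 and 230 and 355 with no filter on low counts. With the 6 libraries alone the counts were 92 and 187, and with all 29 they were 72 and 62. Without a replicate block, that is without pairing by mouse, 2 genes were higher and 1 lower. Leaving out 1 mouse gave 5 to 167 higher and 2 to 123 lower genes. With the F5 library of mouse 1 also out, a choice made after seeing the data, as was the fit of F2 to F4 libraries, the counts were 29 and 34 without mouse 2 and 312 and 649 without mouse 3. The cause of these shifts was not tested.

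The difference between ICZ and vehicle, 0 genes, became 3 with the replicate number as a replicate block (Rn18s-rs5, Defa26 and Ikzf2), 13 with the 12 F2 and F4 libraries alone and 109 with no filter on low counts. It stayed at 0 with each mouse left out. The vehicle count, 300, was 27 without the block, 1777 with 6 libraries alone, 793 with DESeq2, 1943 with F2, F3 and F4 only and 15 to 1181 with 1 mouse left out. Low reads limit Klf2 and other genes near 1 CPM in F2.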
